A study of Homo sapiens with 6 samples.

Results

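The Polycomb repressive complex 2 (PRC2) was examined through the promoters of the 10 genes that encode its core and accessory subunits: EZH1, EZH2, EED, SUZ12, JARID2, AEBP2, MTF2, PHF1, PHF19 and EPOP. The genes were taken by name from 20015 protein-coding genes of GENCODE v44 (hg38), and a peak was assigned to a gene when it overlapped the 1500 bp on either side of any of its transcript starts. The data came from 6 libraries of sequential chromatin immunoprecipitation (reChIP-seq) on untreated, parental cells of NCI-H661, a non-small cell lung cancer line derived from a large cell carcinoma. In K4–K119, chromatin was pulled down with an antibody against H3K4me3, a mark of active promoters, and the eluate with an antibody against H2AK119ub, the ubiquitin mark placed by PRC1. In K119–K4 the order was reversed, and in IgG–IgG nonspecific rabbit antibody was used in both steps. Each condition had 2 replicates, each of 1000000 single-cross-linked cells, all from 1 cell line, and the labels do not say whether replicates came from separate cultures. No library with a specific antibody followed by IgG was analysed here, and the peak lists hold no expression, so the cell type could not be checked against its markers.

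PRC2 trimethylates H3K27. EZH1 and EZH2 are its alternative catalytic subunits, EED reads the trimethylated mark and stimulates the enzyme, and SUZ12 is the scaffold. Accessory subunits join SUZ12 in mutually exclusive sets: the Polycomb-like proteins MTF2, PHF1 and PHF19 bind unmethylated CpG-rich DNA, and EPOP joins this form of the complex, whereas JARID2 and AEBP2 form the other set and recognise nucleosomes with H2AK119ub. PRC1 and PRC2 therefore meet through H2AK119ub, the mark that is read here together with H3K4me3 at the genes of PRC2 itself.

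The promoters differ in their density of CpG, the dinucleotide that marks CpG islands. RefSeq promoters (GRCh38.p14; 250 bases before to 50 after a start) were found for 9 of the 10 genes, in 12 entries. The following 6 are shown because 3 belong to genes with a region called in both antibody orders (EZH2, AEBP2 and SUZ12) and 3 to genes without one (JARID2 at its upstream start, EED and MTF2). Each reads 5′ to 3′ in the direction of the gene, with every CpG in capitals.
EZH2 (chr7:148884242-148884541, minus strand): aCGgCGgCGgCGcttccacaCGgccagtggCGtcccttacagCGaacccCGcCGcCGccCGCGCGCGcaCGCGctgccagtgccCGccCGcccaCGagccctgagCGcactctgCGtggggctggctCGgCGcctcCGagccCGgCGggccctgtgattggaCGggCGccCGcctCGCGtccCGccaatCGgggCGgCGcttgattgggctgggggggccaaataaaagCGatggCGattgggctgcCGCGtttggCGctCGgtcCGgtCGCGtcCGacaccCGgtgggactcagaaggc
AEBP2 (chr12:19440349-19440648, plus strand): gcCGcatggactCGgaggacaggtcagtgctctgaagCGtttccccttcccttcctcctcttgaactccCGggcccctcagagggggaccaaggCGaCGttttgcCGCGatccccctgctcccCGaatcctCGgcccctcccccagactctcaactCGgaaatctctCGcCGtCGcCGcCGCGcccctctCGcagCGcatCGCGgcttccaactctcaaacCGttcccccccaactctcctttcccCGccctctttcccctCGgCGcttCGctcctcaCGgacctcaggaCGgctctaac
SUZ12 (chr17:31936757-31937056, plus strand): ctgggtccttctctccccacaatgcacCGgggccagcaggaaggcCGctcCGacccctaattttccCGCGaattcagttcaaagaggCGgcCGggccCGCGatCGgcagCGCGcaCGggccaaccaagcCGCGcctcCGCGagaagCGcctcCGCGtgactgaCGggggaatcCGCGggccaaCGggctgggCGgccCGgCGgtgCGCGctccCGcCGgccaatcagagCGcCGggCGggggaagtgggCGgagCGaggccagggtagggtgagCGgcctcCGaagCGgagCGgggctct
JARID2 (chr6:15245819-15246118, plus strand): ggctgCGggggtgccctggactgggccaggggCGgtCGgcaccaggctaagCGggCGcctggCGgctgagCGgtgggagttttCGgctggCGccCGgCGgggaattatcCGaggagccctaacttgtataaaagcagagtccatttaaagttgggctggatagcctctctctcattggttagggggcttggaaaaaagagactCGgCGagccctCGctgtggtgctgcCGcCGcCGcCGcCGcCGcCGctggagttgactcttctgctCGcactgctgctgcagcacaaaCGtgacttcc
EED (chr11:86244503-86244802, plus strand): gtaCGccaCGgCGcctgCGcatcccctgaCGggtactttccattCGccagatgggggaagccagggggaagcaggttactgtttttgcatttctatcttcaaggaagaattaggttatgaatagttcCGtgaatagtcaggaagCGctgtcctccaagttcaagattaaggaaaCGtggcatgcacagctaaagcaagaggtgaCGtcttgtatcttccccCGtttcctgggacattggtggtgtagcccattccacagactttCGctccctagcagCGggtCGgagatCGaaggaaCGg
MTF2 (chr1:93079033-93079332, plus strand): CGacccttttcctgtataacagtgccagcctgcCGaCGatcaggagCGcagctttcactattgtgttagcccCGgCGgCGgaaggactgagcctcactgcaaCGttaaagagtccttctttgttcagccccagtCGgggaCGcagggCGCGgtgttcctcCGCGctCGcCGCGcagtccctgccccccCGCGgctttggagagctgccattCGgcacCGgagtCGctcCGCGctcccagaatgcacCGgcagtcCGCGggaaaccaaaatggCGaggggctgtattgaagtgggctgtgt

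In these 300 bases, EZH2 held 46 CpG, SUZ12 40, AEBP2 28, MTF2 28, JARID2 24 and EED 16, against a median of 21 over 21613 promoters of protein-coding genes. AEBP2, with a region, and MTF2, without one, thus had the same count at this scale. The AEBP2 entry lies downstream of its canonical start, however, while the MTF2 entry covers its own. Of the entries not shown, those of genes with a region held 19 (PHF1), 26 and 48 (PHF19) and 45 (EZH2). Those of genes without one held 30 (EZH1) and 40 (JARID2, downstream start). The PHF19 entry with 26 CpG lies outside the region of that gene, at starts from 8277 bp downstream of the canonical start, where no listed peak had more than 3 reads. Short runs of letters were searched on both strands of all 12 entries, and none of the runs contains another. GGGCGG, the GC box bound by SP1, was in 10 of 12 entries and in 56.8% of all promoters. CCAAT, the box bound by NF-Y, was in 6 of 12 entries and in 34.9% of all promoters, and the EZH2 promoter above held it 4 times. TTTGGCG, a run matching the E2F site, was in 2 of 12 entries, those of EZH1 and the EZH2 promoter above, against 2.30% of all promoters. A further E2F-like run, TTTCGCG, was in 1 entry, that of PHF19, against 1.75%. CGGAAG, the core of ETS sites, was in 2 of 12 entries against 23.9%, and GCATGCG, which is part of the NRF1 site, in 1 entry, that of EZH1, against 4.62%.

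The deposited lists give, for each peak of each library, its reads, the reads of genomic input in the same place and the authors' log2 fold and FDR. Listed peaks of the reChIP libraries held 867173 to 1977756 reads, and those of the IgG–IgG libraries 58980 and 65445 reads. Reads outside peaks are not in the lists, so the sequencing depth is unknown, and a promoter with none listed may still have had reads. Between 65.9% and 81.1% of listed reChIP peaks had 2 reads, hence peaks of 10 or more reads are described apart. Peaks with an FDR below 0.05 were kept where their log2 fold was over 1. They were called reproducible when peaks of both replicates overlapped by more than 25% of both, and such peaks were merged to their outer limits. A reciprocal region is the merged span of reproducible peaks of both orders that overlapped by the same rule. Its limits can therefore come from 1 library, and not all of its span is shared by both orders. The fold sets input on a scale of its own in each library. To be kept, a peak needed more than 0.657 reads per input read in K4–K119 replicate 1, but more than 7.90 in K4–K119 replicate 2, 9.48 in K119–K4 replicate 1 and 7.24 in K119–K4 replicate 2. Input reads under the peaks were alike between libraries. At the EPOP start peak they were 20 over 3000 bp in K4–K119 replicate 1 and 15 over 2300 bp in replicate 2. In K119–K4 they were 17 over 2700 bp and 13 over 2200 bp. The total reads of input and reChIP are not in the lists. A more lenient filter in K4–K119 replicate 1 and fewer total reads in its reChIP relative to input therefore cannot be told apart.

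A reciprocal region lay at 6 of the 10 PRC2 genes: EZH2, SUZ12, AEBP2, PHF1, PHF19 and EPOP. Of all 20015 genes, 20.9% had one. The same 6 genes were those with a reproducible K4–K119 peak, against 33.0% of all genes, and with a reproducible K119–K4 peak, against 30.0%. EZH1, EED, JARID2 and MTF2 had neither. No peak was listed at any of the 10 promoters in either IgG–IgG replicate, whereas 10.3% and 10.7% of all genes had a kept promoter peak in these libraries and 19.1% in either, none of 10 or more reads. Of 67 peaks listed at the 10 promoters, 37 had 10 or more reads, 28 had 2 to 4 reads and 2 had 5 to 9 reads. Kept peaks of 10 or more reads were present in all 4 reChIP libraries at those same 6 genes, against 19.7% of all genes. Taken singly, K4–K119 replicate 2 had such a peak at 6 of the 10 (29.7% of all genes), K119–K4 replicate 1 at 7 (39.4%) and K119–K4 replicate 2 at 7 (26.4%).

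**Figure D1:**
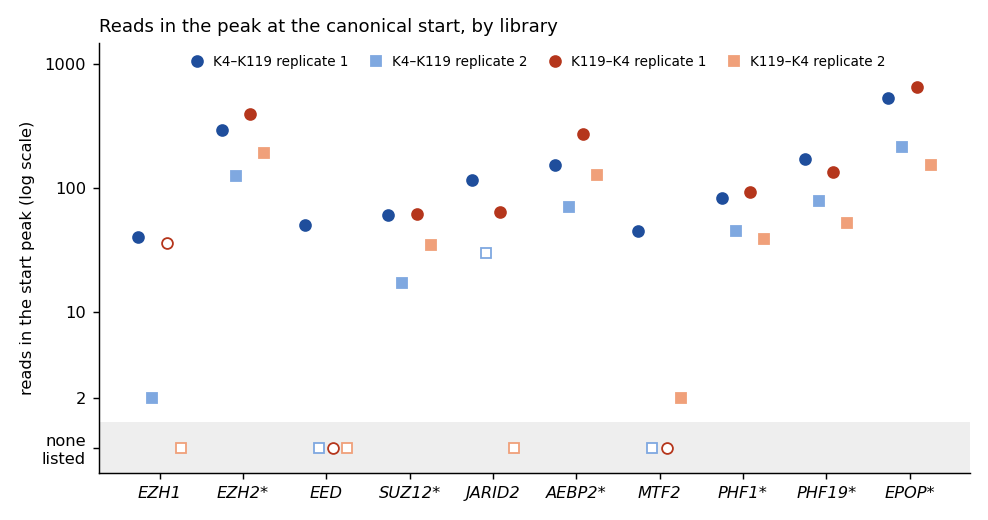
Reads (vertical axis, log scale) in the largest peak within 1500 bp of the canonical start of each PRC2 gene (horizontal axis), with 1 point per reChIP library. Filled points are kept peaks, open points above the gray band are listed peaks that were not kept, points in the band have no listed peak, and asterisks mark genes with a reciprocal region. EPOP reached 663 reads, while EED had a peak in K4–K119 replicate 1 alone.

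Among the catalytic subunits, EZH2 had a region and EZH1 had none. The peak over the canonical start of EZH2 had 293 and 125 reads with H3K4me3 first, and with H2AK119ub first it had 398 and 191. Its region extended over 2800 bp at chr7:148882701-148885500 (hg38) and contained the canonical start, but not the start codon of the canonical transcript. Within each library, the largest promoter peak of EZH2 had more reads than that of 92.9% to 98.2% of all genes. At EZH1, K4–K119 gave start peaks of 40 and 2 reads, K119–K4 replicate 1 gave 36, and in K119–K4 replicate 2 none was listed. The 36 reads stood over 4 input reads, an authors' log2 fold of 0.93, and this peak was not kept. The 2 catalytic genes thus fell on opposite sides of the call, and no test compares genes within these libraries.

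EED, the reader of the mark, had a peak at its start in K4–K119 replicate 1 alone, of 50 reads over 10 input reads at chr11:86244601-86246200. No peak was listed at this start in the other 3 reChIP libraries. The start is shared: that of the antisense lncRNA gene ENSG00000288809 lay 220 bp from it, inside the same peak, and reads of both cannot be told apart.

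At SUZ12, the scaffold, K4–K119 gave start peaks of 61 and 17 reads and K119–K4 gave 62 and 35, over 1 or 2 input reads in each library. Its region was the narrowest of the 6, with 800 bp at chr17:31936801-31937600, and only 4.38% of the 4020 reciprocal regions were narrower. It contained the canonical start and lay over exon 1 of 16. This region cannot be assigned to SUZ12 with certainty. SUZ12 has a near-identical copy: 77.3% of the bases of the region belonged to 32-base words that occur elsewhere in hg38, mainly at the pseudogene SUZ12P1 on the same chromosome, at chr17:30731062-30733075. The methods give read lengths above 32 bases, so this share is not the share of reads that match both places equally well, which was not measured. At this copy, the largest K4–K119 peaks had 40 and 25 reads, the largest of K119–K4 replicate 1 had 62, and the only peak of K119–K4 replicate 2 had 3. The 25-read peak lay at a log2 fold of 0.66 and did not pass the filter. Reads were aligned with BWA-MEM at its default settings, under which a read with equally good matches is placed at random among them, and whether such reads were removed before peaks were called was not given in the sources used here. For the other 5 genes with a region, the same share, counted within the 3001 bp around the start, was 0% to 19.6%.

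**Figure D2:**
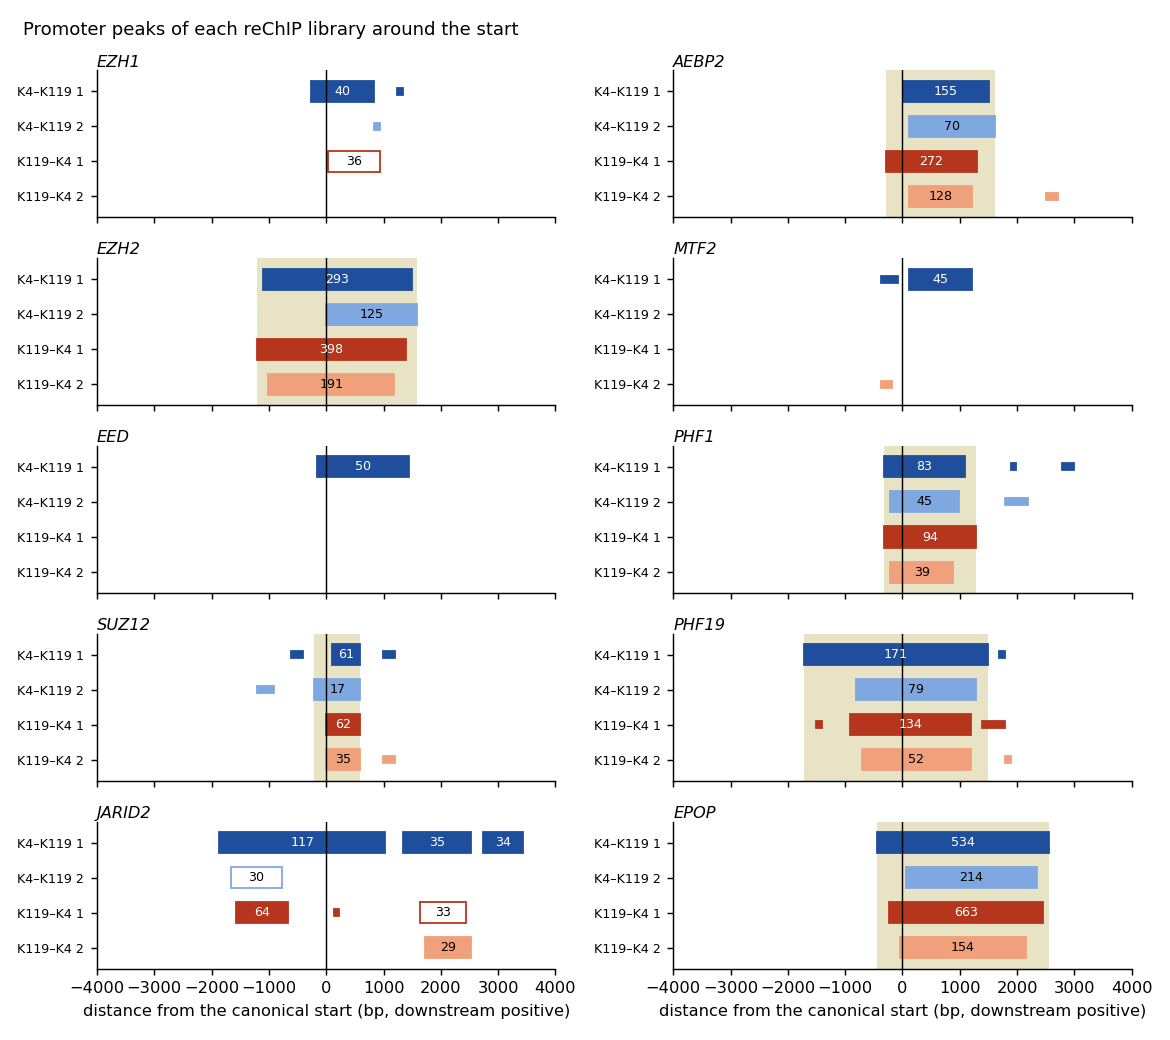
Listed promoter peaks of the 4 reChIP libraries (rows) by distance from the canonical start in bp (horizontal axis, downstream positive) for each gene. Tall bars are peaks of 10 or more reads with the reads printed inside, thin bars have fewer reads, open bars were not kept, and the shaded span is the reciprocal region. Peaks ran mostly downstream of the start, and JARID2 had peaks to both sides of its start but none over it outside K4–K119 replicate 1.

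The accessory genes EPOP, PHF19 and PHF1 had peaks in all 4 reChIP libraries. EPOP, which links PRC2 to elongin B and C, had the most reads of the 10 genes in 3 of the 4 libraries, at 534 and 214 for K4–K119 and at 663 and 154 for K119–K4. It is a gene of 1 exon, and the 3000 bp of its region (chr17:38672401-38675400) covered most of it. PHF19 gave 171 and 79 reads with H3K4me3 first and 134 and 52 with H2AK119ub first, in a region of 3200 bp (chr9:120875701-120878900) around the canonical start. PHF19 had a further start upstream, at a distance of 17708 bp, and no peak was listed there in any library.

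Over the canonical start of PHF1, K4–K119 gave 83 and 45 reads and K119–K4 gave 94 and 39. The region covered 1600 bp (chr6:33410701-33412300) over exons 1 and 2 of 15. A further pair of K4–K119 peaks, of 78 reads in replicate 1 and 53 in replicate 2, lay within 1500 bp of internal PHF1 starts but over the start of the neighbouring gene CUTA, 6529 bp from the canonical start of PHF1. The 53-read peak missed the filter, at a log2 fold of 0.94. No K119–K4 peak was listed there.

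MTF2, the third Polycomb-like gene, had a peak of 45 reads over 10 input reads in K4–K119 replicate 1 (chr1:93079401-93080500). Near this start, K119–K4 replicate 2 had a peak of 2 reads, and neither of the remaining reChIP libraries had any. EZH1, EED and MTF2 were the 3 genes whose kept peak of 10 or more reads was in K4–K119 replicate 1 alone, a pattern that 26.6% of all genes had. All 10 genes had such a peak in that library, against 70.6% of all genes.

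JARID2 and AEBP2, which form the other set of accessory subunits, differed from each other. The AEBP2 start peak gave 155 and 70 reads for K4–K119 against 272 and 128 for K119–K4, over 2 to 5 input reads. Its region covered 1900 bp (chr12:19439201-19441100), of which most lay downstream of the canonical start, over exon 1 of 8. In 3 of the 4 libraries the peak began 9 to 109 bp downstream of the canonical start and contained the 3 protein-coding transcript starts that follow it. AEBP2 also had starts 35447 bp upstream, and no library had a listed peak there.

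At JARID2, which had no region, peaks flanked the upstream start. In K4–K119 replicate 1 a peak of 117 reads and 2900 bp ran over this start. In K4–K119 replicate 2 and K119–K4 replicate 1 the peaks held 30 and 64 reads and ended 769 and 669 bp upstream of it, toward the divergent lncRNA gene JARID2-DT, whose start lay inside them. The 30-read peak missed the filter, at a log2 fold of 0.60. Downstream, near the start that follows at 2786 bp, peaks of 35, 33 and 29 reads were listed in K4–K119 replicate 1, K119–K4 replicate 1 and K119–K4 replicate 2, and that of 33 reads was not kept at a log2 fold of 0.80. A further peak of 34 reads lay over this start in K4–K119 replicate 1. Without the filter on the fold, JARID2 had a reproducible peak in each order, over and upstream of the start in K4–K119 and downstream of it in K119–K4, hence still no reciprocal region. The stretch between these peaks was poorer in CpG, with 41 CpG per kb and 48.5% G and C over 2000 bp, against 105 per kb and 66.8% upstream and 84.2 per kb and 58.3% downstream.

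Peaks of 10 or more reads lay mostly at the promoters, whereas most peaks of the gene bodies were small. In the gene bodies, the reChIP libraries had 134 peaks beside the 67 at the promoters, of which 120 had 2 reads and 1 had 10 or more, at JARID2 (chr6:15400001-15401300, 24 reads in K4–K119 replicate 1, 153932 bp from the start). The IgG–IgG libraries had 27 such peaks, of which 25 had 2 reads and the largest, at SUZ12, had 9. JARID2 held 66 and AEBP2 50 of these body peaks in all 6 libraries, and both are long genes.

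Since wide peaks collect more reads, levels were compared between genes as reads per kb of the start peak, with 0 where none was listed. These values are not scaled between libraries, hence neighbours in the order were compared within each library. By the median of the 4 reChIP libraries, the order was EPOP (136 reads per kb), AEBP2 (110), EZH2 (99.8), SUZ12 (80.8), PHF1 (48.1), PHF19 (45.5), JARID2 (36.8), EZH1 (28.2), MTF2 (5) and EED (0). No gene lay above its next neighbour in this order in all 4 libraries. EPOP was above AEBP2 in 3 of 4, at 178 against 103, 93.0 against 46.7 and 246 against 170 reads per kb, and below it in K119–K4 replicate 2, at 70 against 116. AEBP2 was above EZH2 in 2 of 4, both of the K119–K4 order, and PHF1 was above PHF19 in 2 of 4. JARID2 was never below EZH1, nor MTF2 below EED, but each pair was tied at 0 where neither gene had a listed start peak. All other neighbours changed places in at least 1 library. Whether neighbours differed was not tested. SUZ12 itself ran from 21.3 to 122 reads per kb. Small peaks weigh heavily on this scale: EZH1 reached 20 reads per kb in K4–K119 replicate 2 with a peak of 2 reads over 100 bp, close to the 21.3 of SUZ12 from 17 reads.

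Set against input, the genes fell into separate ranges in K4–K119 replicate 1. These reads also enter the call of a region, so the ranges are given as a description. The 6 genes with a region had 15.5 (PHF19) to 61 (SUZ12) reads per input read in the start peak. The 4 genes without one had 4.5 (MTF2), 5 (EED), 6.67 (EZH1) and 7.31 (JARID2). Over all 13992 genes with a listed promoter peak of 10 or more reads and at least 1 input read in this library, the median for the largest such peak was 21.3 for 4096 genes with a region and 9 for 9896 genes without one. Among the start peaks, the nearest to the limit of their own library were EZH1 in K119–K4 replicate 1, at 9 against 9.48, and, among kept peaks, PHF19 in K119–K4 replicate 2, at 7.43 against 7.24, and SUZ12 in K4–K119 replicate 2, at 8.5 against 7.90. With a log2 fold above 2, AEBP2 alone of the 10 genes had a region, as did 6.27% of all genes. At this fold, AEBP2 was also the 1 gene with a reproducible K4–K119 peak (13.7% of all genes), and SUZ12 and AEBP2 were the 2 with a reproducible K119–K4 peak (15.3%).

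**Figure D3:**
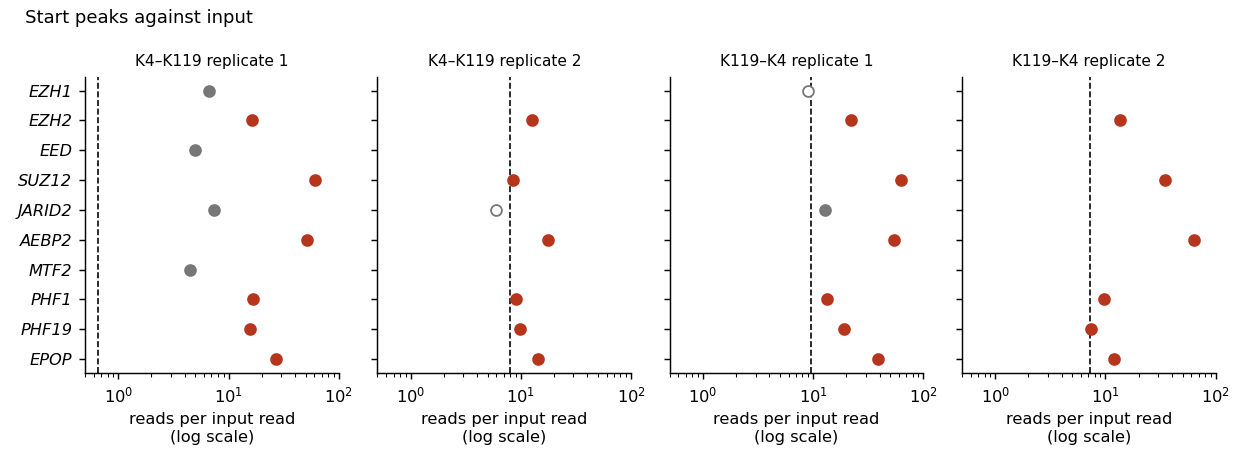
Reads per input read of the start peak (horizontal axis, log scale) for each PRC2 gene (vertical axis) in the 4 reChIP libraries, with genes that had a reciprocal region in red, the others in gray and peaks that were not kept as open points. Peaks without an input read are not drawn. The dashed line is the value needed to be kept, 0.657 in K4–K119 replicate 1 and 7.24 to 9.48 in the others.

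Over a wider window of 3001 bp around the canonical start, the PRC2 genes with a region had the higher median CpG count, but both sets overlapped. EZH2 had 302, EPOP 244, PHF19 192, AEBP2 184, PHF1 155 and SUZ12 143. Of the genes without a region, JARID2 had 182, more than PHF1 and SUZ12, EED had 127 and MTF2 90, and EZH1 lay between EED and MTF2. The medians were 188 and 123 for the PRC2 genes with and without a region, 171 for all genes with a region and 115 for all genes. The share of all genes with a region rose with the CpG count, from 1.5% in the lowest decile to 58.3% in the highest. EZH2 and EPOP were in the highest decile, AEBP2, PHF19 and JARID2 in the next (46.4%), PHF1 in that at 32.9%, SUZ12 in that at 26.3%, EED and EZH1 in that at 16.7% and MTF2 in that at 7.65%. Whether CpG plays a part in the calls was not tested.

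To compare the orders of the antibodies, reads of all listed promoter peaks were summed per gene, scaled to CPM over promoter peaks with TMM factors and tested with edgeR over 8510 genes with a peak in each of the 4 reChIP libraries. Of the PRC2 genes, 8 entered the test, without EED and MTF2. No gene of the 8510 passed an adjusted p of 0.05, so 0.00% were called in either direction. At an unadjusted p below 0.05 there were 1086 genes, or 12.8%, and 2 of the 8 PRC2 genes.

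These were AEBP2 and EZH2. AEBP2 stood at 102 and 99.5 CPM in K4–K119 against 224 and 255 CPM in K119–K4. The K119–K4 replicates were both higher, by a log2 difference of 1.24 (SE 0.19, 95% interval 0.75 to 1.74, edgeR adjusted p = 0.246). EZH2 stood at 194 and 178 CPM against 328 and 375 CPM, a log2 difference of 0.91 (SE 0.18, interval 0.44 to 1.39, edgeR adjusted p = 0.246). A larger share of genes lay below AEBP2 (98.4%) and EZH2 (94.96%) in this difference than below the other 6 PRC2 genes. DESeq2 called 499 genes, 3.63% of those tested higher in K119–K4 and 2.23% lower, and both AEBP2 (adjusted p = 0.000394) and EZH2 (adjusted p = 0.00383) were among the higher ones. With the replicate number as a block, edgeR again called 0 genes. With this block and at least 10 reads in each library, a filter added after seeing the data, edgeR called 726 of 5973 genes, 6.83% of those tested higher in K119–K4 and 5.32% lower. AEBP2 (edgeR adjusted p = 0.0127) and EZH2 (edgeR adjusted p = 0.0253) were again among the higher ones.

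At SUZ12 both K119–K4 replicates were also above both K4–K119 replicates, at 51.2 and 72.6 against 45.5 and 29.8 CPM, with a log2 difference of 0.70 (interval −0.70 to 2.10). Such an order without overlap was found at 3 of the 8 PRC2 genes and at 25.4% of all genes tested. PHF1 had the reverse order, at 77.6 and 76.5 against 109 and 144 CPM, as had 24.7% of all genes, with a log2 difference of −0.71 (interval −1.47 to 0.05). This direction at PHF1 turned when peaks at the canonical start alone were counted, to 0.32, since the peaks at the CUTA start were listed in K4–K119 only. The orders overlapped at EPOP (log2 difference 0.38, interval −0.46 to 1.22), PHF19 (−0.02, interval −0.63 to 0.60), JARID2 (−0.26, interval −1.80 to 1.29) and EZH1 (0.25, interval −3.37 to 3.87). The intervals of these last 2 genes span more than a doubling in either direction. Their reads came from different places in replicate 2 of each order. JARID2 had only its upstream peak in K4–K119 and only its downstream peak in K119–K4. EZH1 had 2 reads in each, in K119–K4 at 26540 bp downstream of the canonical start. Neither gene entered the fit on peaks at the canonical start alone.

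**Figure D4:**
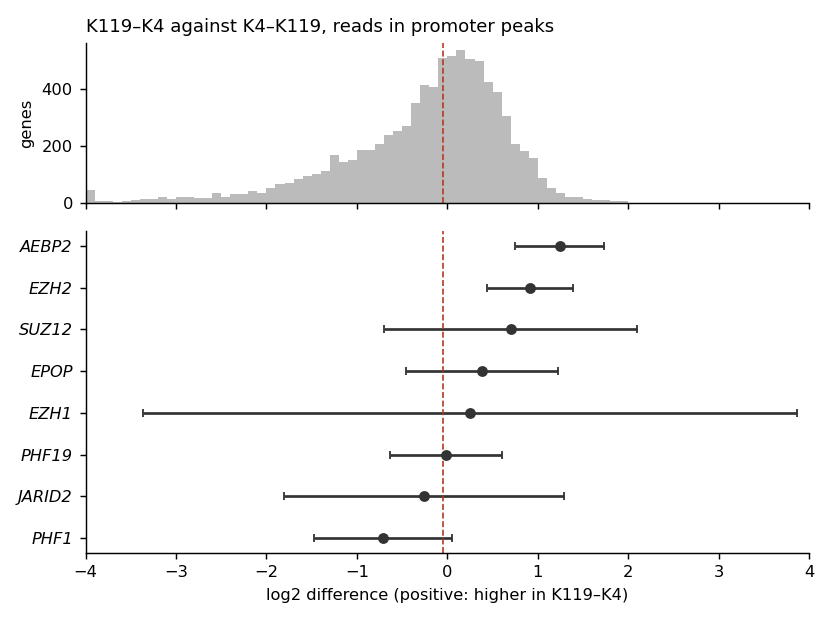
Log2 difference of reads in promoter peaks between K119–K4 and K4–K119 (horizontal axis, positive is higher in K119–K4). Gray bars count all 8510 genes tested, with values beyond 4 drawn at 4, points and lines are the 8 PRC2 genes with 95% intervals from edgeR, and the dashed line is the median of all genes, −0.05. The intervals of AEBP2 and EZH2 lie above this line.

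Further genes of the Polycomb pathway were counted in the same way, with 20.9% of all genes having a region. Of 7 further PRC2 partners and H3K27 demethylases, 5 had a region. In the order of libraries K4–K119 replicates 1 and 2 and K119–K4 replicates 1 and 2, the largest promoter peak of the demethylase gene KDM6B had 439, 190, 299 and 117 reads. LCOR, whose locus encodes a PRC2 accessory protein, had 121, 71, 133 and 84 reads, its paralog LCORL 106, 62, 165 and 55, and the X-linked demethylase gene KDM6A 23, 30, 27 and 30. The PRC1 genes encode the enzyme that places H2AK119ub and the proteins that assemble it. Of 8 PRC1 RING and PCGF genes, 5 had a region. PCGF2 had 589, 307, 504 and 192 reads, and RNF2, which encodes the E3 ligase for H2AK119, had 240, 139, 322 and 117. BMI1 and PCGF3, which encode alternative partners of the ligase, had 185, 106, 175 and 77 reads and 81, 47, 136 and 49 reads. Chromobox proteins read trimethylated H3K27, and Polyhomeotic proteins link PRC1 complexes to each other. Of these 8 PRC1 genes, 2 had a region, CBX2 with 358, 190, 426 and 185 reads and PHC2 with 148, 64, 179 and 68. CBX6 had 204, 128, 128 and 92 reads, without a region. Kept IgG–IgG peaks, each of 2 reads, lay at LCORL, KDM6A, RNF2 and PHC1. As none of the 8510 genes passed the edgeR test of the orders, none of these did.

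The profile of EPOP over the 4 reChIP libraries was compared with that of every other gene, by the largest absolute log2 difference in reads of the largest promoter peak over the 4 libraries. The 3 genes nearest to EPOP were WDR86 (467, 193, 563 and 145 reads, largest difference 0.24), FIGNL2 (500, 206, 559 and 178 reads, 0.25) and EPB41L1 (558, 256, 587 and 159 reads, 0.26).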

How the data were processed

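The 6 reChIP-seq libraries were grouped by the targets in the submitters' labels, and none was left out. According to the submitters' processing notes and the methods, reads were trimmed with Trim Galore 0.6.6, aligned to hg38 with BWA 0.7.13 and processed with SAMtools 1.9 and Picard 2.6.0, and the authors called peaks in each replicate with EPIC2 (100 bp bins). Per peak, the authors deposited unscaled whole-number counts of reads and input reads, a p-value and FDR of a test against input, a log2 fold of reads over scaled input, and a score, which is that fold times 100 up to a limit and was not used. The authors' exclusion of blacklisted regions was not repeated.

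No peak lay beyond the chromosome ends of the hg38 reference. A promoter spanned 1500 bp up and down from each transcript start of a gene (20015 protein-coding genes, GENCODE v44). A start peak was the largest listed peak within that distance of the canonical start. CpG was counted on hg38, and promoter sequences came from RefSeq (GRCh38.p14). Copies were counted as 32-base words of the 3001 bp around a start found elsewhere on the main chromosomes of hg38, on both strands.

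Orders were compared with edgeR 4.0.16 (quasi-likelihood, TMM, Benjamini-Hochberg adjustment over all genes tested). With 2 libraries an order, power was low in a simulation in which all genes shared 1 dispersion, 0.207. Of 200 genes above the median level that were given 4-fold changes, among 8510, 9 were called. The simulation does not give the power for genes with a smaller or larger spread. The model held no replicate block. The labels state no batch, while the methods, for contrasts of doxycycline treatment, say that experiments were repeated as whole batches. For reChIP, the methods describe pooled nuclei and a portion of the cleared chromatin for each reChIP, without saying which libraries shared a pool. Deviations of same-numbered libraries correlated at 0.31 over 5973 genes in 2 pairs, so fits with the replicate number as a block are given too. P-values measure the spread between these libraries, which may be technical. Alternatives are given in the closing section. Other genes were named where they had a start inside a PRC2 promoter peak, as up to 4 genes per list with the most reads in their lowest library, and as the 3 genes nearest to the PRC2 gene with the most reads. A gene that fell under this rule is not reported here. SUZ12P1 was named after its values were seen. The PRC2 genes and the lists were chosen with earlier results of these data known. Scripts were tested on simulated data and run with Python 3.11.15, numpy 2.4.6, pandas 2.3.3, matplotlib 3.10.9, R 4.3.3 and DESeq2 1.42.0.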

Additional observations from a re-analysis of the deposited data

How the results depend on the processing

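The lists do not give depth, the folds rest on input scales that differ between libraries, and 2 replicates an order limit every test of the orders. Of 18 alternatives for the reciprocal region, 17 left the same 6 PRC2 genes with a region. These included each library left out in turn and the replicate block, in which regions were built within each replicate number first (6 genes). Some of the 17 loosened the rule and could hardly remove a gene, so their agreement says little. With a library left out, the other replicate alone stood for its order. Looser too were no filter on the fold (30.2% of all genes with a region), any overlap of 1 bp (22.7%) and over 25% of either peak (22.6%), against 20.9% in the main call. A log2 fold above 2 left 1 gene with a region, AEBP2, 1 gene with a reproducible K4–K119 peak (13.7% of all genes) and 2 with a reproducible K119–K4 peak (15.3%). Without K4–K119 replicate 1 or 2, where 1 library stands for its order, 7 or 10 genes had a K4–K119 peak (52.3% or 78.2% of all genes), and without K119–K4 replicate 1 or 2, 10 or 9 had a K119–K4 peak (61.4% or 64.1%). The count of 0 genes with an IgG–IgG peak was the same under all 11 alternatives. No IgG–IgG peak was listed at these promoters and no alternative widened the windows, so this count could not have changed.

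Between the orders, edgeR called 0 of 8510 genes. DESeq2 called 499. With a peak in at least 1 of the 4 libraries 3 were called, with the log of peak width as an offset 235 (227 higher in K119–K4 and 8 lower), and leaving out 1 library at a time gave 0 to 352, the 352 (3 higher and 349 lower) without K119–K4 replicate 1. Summed widths shifted the median of all genes from −0.05 to 0.39, and total listed reads without TMM to −0.22 with 0 calls. Added after seeing the data, peaks at the canonical start alone gave 2 calls, and the replicate block with at least 10 reads in each library gave 726 (408 higher and 318 lower), while the replicate block alone and 10 reads alone gave 0 each.

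AEBP2 was called with DESeq2, with the width offset (log2 difference 1.31, adjusted p = 0.0474, edgeR) and with the block and 10 reads (1.10, adjusted p = 0.0127, edgeR), and EZH2 with DESeq2 and with the block and 10 reads (0.77, adjusted p = 0.0253, edgeR). Over all alternatives the log2 difference of AEBP2 ran from 1.06 to 1.39, with adjusted p from 0.000394 to 0.688, and that of EZH2 from 0.71 to 1.06, with adjusted p from 0.00383 to 0.688. PHF1 changed sign with its largest peak alone (0.24), the canonical start alone (0.32) and the width offset (0.51). JARID2 changed sign with the width offset (0.71), and PHF19 with a peak in at least 1 library (0.13) and the width offset (0.16). Leaving out 1 library moved EZH1 between −1.91 and 2.66, JARID2 between −0.78 and 0.66, PHF19 between −0.054 and 0.081 and EPOP between −0.087 and 0.80. The cause of these changes was not tested.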
